A study of Mus musculus with 249 samples.

Results

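The HoxA cluster and its surroundings were examined as the 125 windows of 40 kb that lie between 49 and 54 Mb on mouse chromosome 6 (assembly mm9), out of 3738 windows of chromosome 6 and 68162 windows in all. The rule takes windows by their position and uses no measured value. The cluster itself fills 4 windows, chr6:52080001-52240000, with 77 windows on the side of lower coordinates (the lower flank) and 44 on the side of higher coordinates (the higher flank). All 125 windows were positive in at least 25 libraries. Comparisons of linkage between the flanks, and the counts of called pairs by flank, used the 44 windows nearest the cluster on each side. These leave out the outer windows of the lower flank.

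The cells were mouse embryonic stem cells of the line 46C (strain 129/Ola, derived from E14tg2a with GFP knocked into Sox1), and the assay was genome architecture mapping (GAM) in its multiplex form. GAM cuts frozen cells into thin slices, isolates single ones with a laser (nuclear profiles where they cross a nucleus), and sequences the DNA that each tube of slices holds. By the paper, cresyl violet does not tell nucleus from cytoplasm, and not every cell slice taken with it crosses a nucleus. A library of the collection pooled profiles of several cells, with 4 profiles per tube by the sample titles and a somewhat lower mean number of nuclear profiles by the study's text, and each window of the genome was recorded only as positive or not. The 249 libraries fall into 11 experiments with 20 groups that differ in how the sections and the DNA were handled: stain (cresyl violet or none, with unstained libraries also from tests of eosin, SYBR Gold and propidium iodide), freezing early, late, after incubation or not at all, kit size, reagent volumes (protocols A, B and C), proteinase K volume (1 or 2 µl), 20, 23 or 25 PCR cycles, and a full collection of 54 libraries. The labels give all groups the same line and the same culture, in serum with LIF and, for the last day, in serum-free ESGRO medium. The study's text speaks of a biological replicate of the cells in the singular and the labels name no separate cultures, so p-values and intervals measure the spread between libraries. The table records detection of DNA and no expression, so the cell type could not be checked against marker genes.

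Hox genes encode homeodomain transcription factors that give position along the body axis, and those of a cluster lie in the order in which they are used from head to tail. In embryonic stem cells the clusters are largely silent and carry Polycomb marks. At HoxA, enhancers for different tissues lie far away on both sides, which makes the division of contacts between the flanks a question of how these genes find their regulatory DNA.

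Window 1 (chr6:52080001-52120000) holds Hoxa2, which patterns the second pharyngeal arch, and the end of the long transcription unit of Hoxa3, a gene needed for thymus and parathyroid. Window 2 (chr6:52120001-52160000) holds more of Hoxa3 and Hoxa5, which acts in lung and neck skeleton. Window 3 (chr6:52160001-52200000) holds the annotated start of Hoxa3 together with Hoxa7, Hoxa9, Hoxa10 and Hoxa11. Hoxa9 is best known from blood progenitors, Hoxa10 from the uterus and Hoxa11 from the forearm and uterus. Window 4 (chr6:52200001-52240000) holds Hoxa13, at chr6:52207693-52210874, which patterns digits and the genital tubercle. All 8 genes are transcribed from the minus strand, so the genes used nearest the head lie at the lower coordinates. A window is the smallest unit of the data, and genes that share a window cannot be told apart.

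Linkage across window edges had a shallow minimum between windows 3 and 4 and deeper minima farther out, described with the insulation scores. CTCF, a protein bound at many domain edges, recognises a known DNA word. The sequence of the assembly was therefore searched on both strands for the CTCF core consensus in its 12-letter form, a choice made after the linkage values were seen. A match lies in 16.9% of all 3641 windows of chromosome 6 in the maps, in 23 of 77 windows of the lower flank (29.9%), in 14 of 44 of the higher flank (31.8%) and in 0 of the 4 cluster windows. With shares of this size, 0 of 4 sets the cluster apart from neither the flanks nor the chromosome, and no difference was tested. The absence of a match says only that these letters are not there. The following are the match just before the edge at 51120000, the matches on either side of the edge at 52960000, and the matches nearest the cluster on the lower and the higher side. Capitals mark the consensus, and each is written 5′ to 3′ on its own strand.
Match before the lower edge, chr6:51118235-51118246, minus strand, between genes: tggagaggCCACCAGGGGGCgacgcaga
Match before the higher edge, chr6:52937503-52937514, minus strand, intron of Jazf1: cactttcaCCAGCAGAGGGCagtataag
Match after the higher edge, chr6:52979647-52979658, minus strand, intron of Jazf1: tgtggaggCCAGCAGGGGGCatccgatc
Nearest match on the lower side, chr6:51966545-51966556, minus strand, between genes: cccctcccCCAGTAGGGGGCcttgccta
Nearest match on the higher side, chr6:52551303-52551314, minus strand, intron of Hibadh: tatctgtgCCACCAGGGGGCattgcatg

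Across the libraries, coverage (the percent of all windows that were positive) ranged from 3.4% to 45.2%, with a mean of 18.2% ± 7.69 (SD, n = 249), and 5 libraries lay below 5%. The reads behind a call were not recorded, so the depth is unknown. The percent of the 125 windows positive ran from 0 to 80.8% with a median of 12%. In 36 libraries the whole region was missed, and in 30 libraries more than 50% of it was captured.

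Detection counts were lower toward the Hoxa13 end of the cluster, by a difference that did not pass the test over all window pairs. Window 1 was positive in 61 of 249 libraries, window 2 in 53, window 3 in 45 and window 4 in 37. The mean of the 4 windows, 49, is close to the median of 50 over the 3516 windows of chromosome 6 outside the region that were positive in at least 25 libraries. Among these windows, from which those under 25 libraries are left out, 6.23% were found in 37 libraries or fewer, as the Hoxa13 window was. In 61 or more, as for the Hoxa2 window, 13.5% were found. In 37 libraries window 1 was positive and window 4 not, and the reverse held in 13 (exact McNemar p = 0.000936). This test was added after the counts were seen. With Benjamini-Hochberg adjustment over all 181452 pairs of windows 40 to 120 kb apart on the autosomes and X, of which 0.72% passed, the adjusted p was 0.0972, above the threshold of 0.05. On chromosome 6, 1.13% of pairs at this distance had a p as low. The adjusted p of the other 5 pairs of cluster windows was 0.441 or more. The GC content of windows 1 to 4 was 44.6%, 49.3%, 51.4% and 46.7%. The 3516 other windows of chromosome 6 had a mean of 41.3%, and the part of GC content in detection was not tested.

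**Figure D1:**
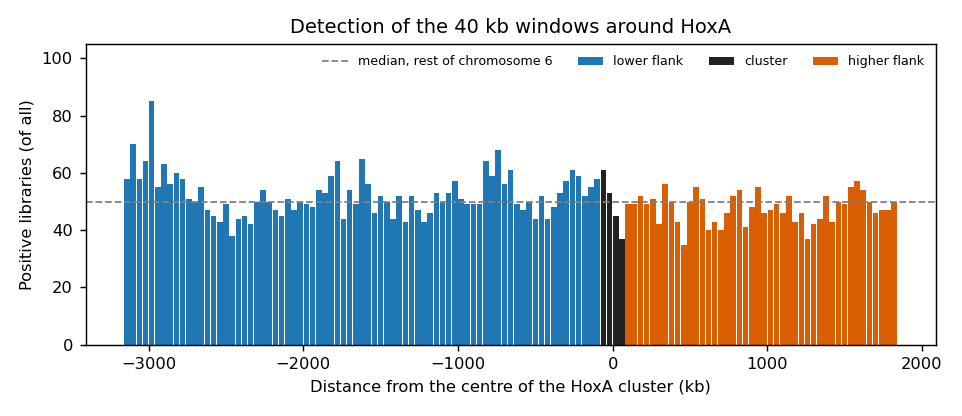
Number of libraries (of 249) in which each 40 kb window was positive, against its distance from the centre of the HoxA cluster in kb. Black bars are the 4 cluster windows. The dashed line is the median of the rest of chromosome 6 (50), over windows positive in at least 25 libraries. The black bars stand at 61, 53, 45 and 37, while the flanks vary between 35 and 85.

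Relative to chromosome 6, the region was neither over- nor under-sampled beyond its error. In each library, the percent of cluster windows positive was set against the percent of chromosome 6 windows outside the region. The difference for the cluster was -0.165 percentage points ± 1.88 (SE, n = 249), with 78 libraries above and 171 below (sign-flip permutation test, two-sided, adjusted p over 4 comparisons = 0.93). The lower flank differed by 1.27 points ± 1.27 (SE) and the higher flank by -0.649 ± 1.37 (SE), each with an adjusted p of 0.846. In 162 of the libraries no cluster window was positive.

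At least 1 cluster window was positive in 87 libraries (34.9%). Of these, 31 held 1 window, 21 held 2, 17 held 3 and 18 held all 4. The commonest patterns after all 4 windows were window 1 alone (15 libraries) and windows 1 to 3 without the Hoxa13 window (11 libraries). Window 4 alone was seen in 6 libraries and windows 2 to 4 without window 1 in 2.

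Libraries that held more of the cluster held more of both flanks. Within 400 kb, 5.31% ± 13.8 (SD, n = 162) of lower flank windows and 4.94% ± 13.2 of higher flank windows were positive when no cluster window was. With all 4 windows positive, the values were 77.2% ± 21.9 and 73.3% ± 27.4 (SD, n = 18). On the rest of chromosome 6, over windows positive in at least 25 libraries, it went from 17.5% ± 12.1 to 32.6% ± 11.5. The part of library coverage in the flank values was not tested here. With 1 cluster window positive, the lower flank was at 31.6% ± 30.7 and the higher flank at 32.3% ± 31.3 (SD, n = 31). With 2 or 3 cluster windows positive, the lower flank was at 51.9% ± 31.2 and 62.9% ± 32.7 and the higher flank at 38.1% ± 31.4 and 49.4% ± 32.9. The spread between libraries was as wide as these differences between the flanks. Of the 87 libraries, the window just below the cluster was positive in 53 and the window just above it, which holds Evx1, in 41. Over all libraries these windows were positive in 58 and 49, and the difference between the flanks in these counts was not tested. Both were positive in 30 libraries and neither in 23.

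**Figure D2:**
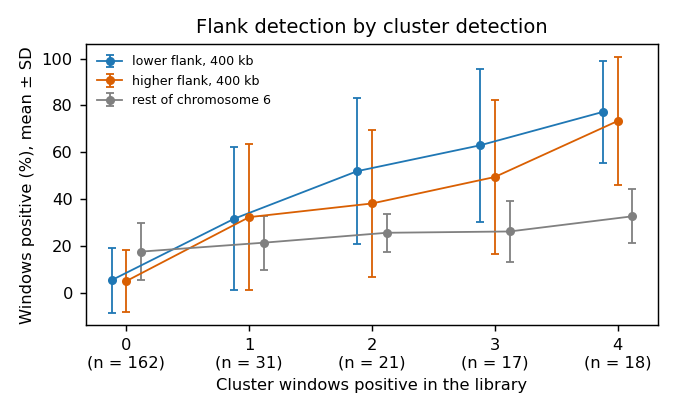
Percent of windows positive (mean ± SD over libraries) within 400 kb on each side of the cluster and on the rest of chromosome 6, for libraries with 0 to 4 cluster windows positive (n below the axis). The rest of chromosome 6 is taken over windows positive in at least 25 libraries. Both flanks rise together, from 5.31% and 4.94% to 77.2% and 73.3%, and the rest of the chromosome from 17.5% to 32.6%.

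Linkage between windows was measured as D′, the observed rate of joint detection minus the rate that independent detection would give, divided by the largest value this difference can take. A D′ of 0 means no linkage and 1 the most that the detection rates allow. As D′ falls with distance, each value was also given as a z-score, its distance from the mean of chromosome 6 pairs equally far apart, in SD of those pairs.

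The cluster held together about as well as other stretches of its size. All 6 pairs of cluster windows were called linked (Fisher's exact test, two-sided, adjusted p from 1.95e-17 to 1.09e-07), as were 99.9% of chromosome 6 pairs 40 to 400 kb apart, so this count is the background. The strongest pairs were windows 2 and 3 (D′ = 0.689 ± 0.079, jackknife SE over libraries, 34 joint detections) and windows 1 and 2 (0.675 ± 0.075, 40 joint detections). Windows 1 and 3, 80 kb apart, stood highest for their distance (0.647 ± 0.0843, z = 1.19). The pairs with the Hoxa13 window were at 0.637 ± 0.0896 with window 3, 0.519 ± 0.0976 with window 2 and 0.535 ± 0.101 with window 1, which is 0.23, -0.31 and 0.26 SD from the chromosome mean. The errors of these pairs overlap. The mean over the 6 pairs was 0.617 ± 0.0575, which exceeds the chromosome 6 mean at the same distances by 0.0405 (95% interval -0.0714 to 0.152). With phi, the plain correlation of detection, in place of D′, the mean z-score of the 6 pairs was -0.12, compared with 0.49, so that the side of the chromosome mean on which the cluster lies depends on the measure. Of 3596 runs of 4 windows on chromosome 6, with a median of 0.577, 2745 had a lower mean.

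Both flanks were linked to the cluster over more than 1 Mb, as most of chromosome 6 is at these distances. Among pairs 40 to 400 kb apart, 34 of 34 with the lower and 34 of 34 with the higher flank were called, against 99.9% of all such pairs on chromosome 6. From 440 kb to 1 Mb the counts were 60 of 60 and 59 of 60, against 98.3%. From 1.04 to 1.88 Mb they were 72 of 82 for the lower and 78 of 82 for the higher flank, against 90.6%. These shares are near the background. With a test stratified by library coverage (Cochran-Mantel-Haenszel), 338 of the 352 pairs were called, compared with 337 without strata. The stratified shares were 94.9% for the lower and 97.2% for the higher flank, against 91.5% of chromosome 6 pairs over the same distances. From 1.04 to 1.88 Mb they were 89.0% and 95.1%, against 84.1%, and these differences from the chromosome were not tested.

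Measured as D′, linkage to the lower flank was 0.529 ± 0.04 (jackknife SE) up to 400 kb and linkage to the higher flank 0.488 ± 0.0431, where the chromosome mean was 0.452. From 400 kb to 1 Mb the values were 0.441 ± 0.0402 and 0.403 ± 0.0385, against 0.342. Above 1 Mb, up to 1.76 Mb, they were 0.243 ± 0.0395 and 0.272 ± 0.0441, against 0.268. The excess over the mean was largest for the lower flank from 400 kb to 1 Mb, at 0.0983 (95% interval 0.0203 to 0.176), where all 15 windows lay above the mean. Above 1 Mb, 5 of 19 lower flank windows (mean z = -0.28) and 9 of 19 higher flank windows did. Without each experiment in turn the excess from 400 kb to 1 Mb ran from 0.0762 to 0.118. For the higher flank at the same distances the excess was 0.0604 (-0.0145 to 0.135), with 11 of 15 windows above. Up to 400 kb it was 0.0772 (-0.000452 to 0.155) below and 0.0362 (-0.0474 to 0.12) above the cluster. Of these intervals and those above 1 Mb, that of the lower flank from 400 kb to 1 Mb alone excludes 0. These intervals were chosen after the profile had been seen and were not adjusted for their number.

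**Figure D3:**
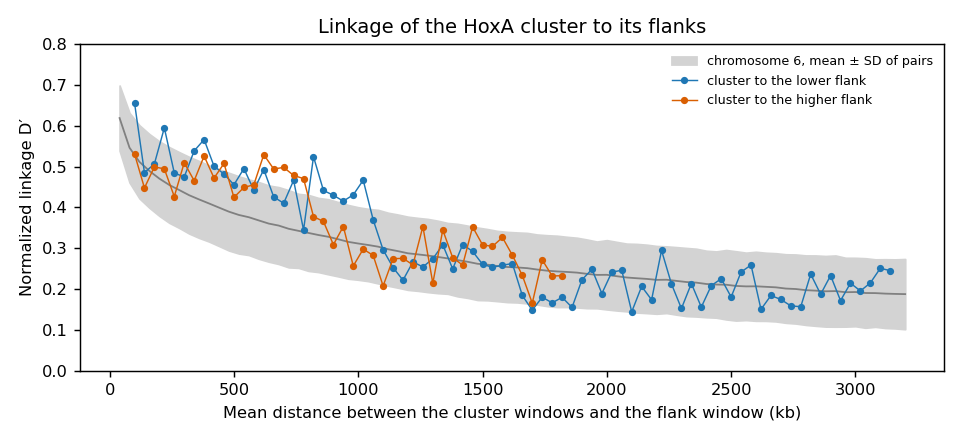
Mean D′ between the 4 cluster windows and each flank window, against their mean distance in kb, for the lower (blue) and the higher flank (orange); the grey line and band are the mean ± SD of chromosome 6 pairs. Up to 1 Mb both curves lie mostly above the grey line, with lower flank means of 0.529 and 0.441 against 0.452 and 0.342, and from 1 to 1.76 Mb 5 of 19 lower and 9 of 19 higher flank windows lie above it.

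The direct comparison of the flanks, over windows at equal distances on both sides, showed no difference beyond the error. Lower minus higher was 0.041 ± 0.0419 (jackknife SE) up to 400 kb (95% interval -0.0411 to 0.123), 0.0379 ± 0.0412 from 400 kb to 1 Mb (-0.0429 to 0.119), -0.0292 ± 0.0472 above 1 Mb (-0.122 to 0.0632) and 0.00963 ± 0.0335 over all distances (-0.0561 to 0.0754). In a permutation test of the cluster's detection within tertiles of library coverage, each had an adjusted p of 0.888. The permutation removes the linkage of the cluster to both flanks, so these p-values do not test whether the linkage to them is equal. The intervals of the near ranges reach from -0.0429 to 0.123 in D′.

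The difference between the flanks was not of the same sign at all 4 cluster windows. Within 400 kb, lower minus higher was -0.0307 ± 0.0587 (SE) for the Hoxa2 window, 0.113 ± 0.0613 for the Hoxa5 window, 0.115 ± 0.0704 for the window of Hoxa7 to Hoxa11 and -0.0333 ± 0.0761 for the Hoxa13 window. The values of the middle windows were under 2 SE from 0, and those of the outer windows under 1 SE. Differences between the windows were not tested.

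Insulation was scored at each window edge as the mean D′ between the 400 kb on either side, so that a low score marks an edge that joins poorly. At the 5 edges of the cluster windows the score was 0.463 ± 0.0398, 0.462 ± 0.0392, 0.452 ± 0.0417, 0.441 ± 0.0423 and 0.451 ± 0.0415 (jackknife SE), from below Hoxa2 to beyond Hoxa13. The chromosome 6 mean was 0.417 ± 0.0484 (SD over 3634 edges), and the 5 edges lay 0.50 to 0.94 SD above it with all libraries. The excess of the lowest edge over the mean was 0.0241, with a 95% interval of -0.0583 to 0.107, and its z-score turned to -0.0333 without the full collection. That lowest of the 5, the edge at 52200000 between Hoxa11 and Hoxa13, was a local minimum with a prominence of 1.29 SD. Prominence is the depth of a minimum below the lower of its shoulders. The score at this edge minus that at the edge 400 kb below was -0.0890, and minus that at the edge 400 kb above it was -0.0515. As the edge was picked for its low score, these differences are a description. The dip remained at the same edge without each of the 11 experiments, with a prominence of 0.896 to 1.67 SD. With a larger square of 800 kb, the nearest minimum moved to the edge below Hoxa2.

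Linkage across the cluster did not differ beyond its error from the mean linkage within its flanks. Between the 400 kb on either side of the 4 windows, D′ was 0.406 ± 0.0436 (jackknife SE), compared with 0.412 ± 0.0246 within the lower and 0.388 ± 0.0263 within the higher flank at the same distances. The difference from the mean of both flanks was 0.00597 ± 0.0404, with a 95% interval of -0.0733 to 0.0852, and it took either sign when experiments were left out (-0.0178 to 0.0242). The chromosome 6 mean at these distances was 0.379. The flank values include pairs that cross the deeper minima farther out, described next, and so do not measure uninterrupted flank. Inside those minima, pairs within the lower and the upper block described below averaged 1.11 and 0.745 SD above the chromosome mean. Pairs that join these blocks averaged 0.582 SD, and this difference was not tested.

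Deeper minima lay farther out. The edge at 52960000, within Jazf1 and 800 kb above the centre of the cluster, had a score of 0.353 (z = -1.32) and the highest prominence of the region, 3.49 SD. Jazf1 encodes a zinc finger protein. On the lower side, the edge at 51120000, between genes and 1040 kb below the centre, had a score of 0.372 (z = -0.93) and a prominence of 2.11 SD. The lowest score of the region, 0.329 (z = -1.82, prominence 2.21 SD), was at 49320000, between a window with Ccdc126 and a window with Stk31, a gene expressed in testis. Without each experiment in turn, the minima at 51120000 and 52960000 stayed within 1 window of their place in 11 of 11 cases, with prominences of 1.5 to 2.88 and 2.70 to 4.06 SD. The score at 52960000 minus that at the cluster's own minimum was -0.0880 (95% interval -0.183 to 0.00735), and for 51120000 the difference was -0.0691 (-0.174 to 0.0355). All 3 edges were picked as minima of this score, and both intervals include 0.

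**Figure D4:**
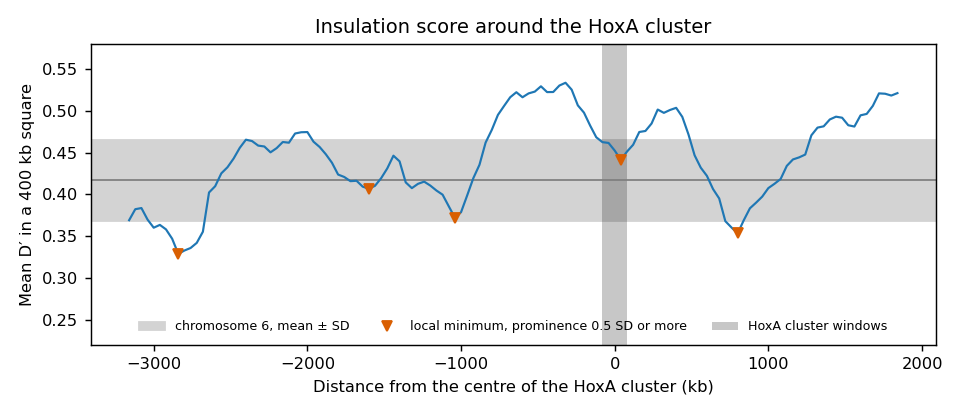
Insulation score (mean D′ in a 400 kb square) at each window edge against its distance from the cluster centre in kb; triangles mark local minima with a prominence of 0.5 SD or more, the grey band is the chromosome 6 mean ± SD and the dark strip the cluster windows. The cluster holds a shallow minimum (0.441) between higher shoulders, with lower values of 0.372 and 0.353 at -1040 and 800 kb.

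The minima at 51120000 and 52960000 enclose the cluster and divide at its dip into a lower block of 27 windows and an upper block of 19. The blocks were drawn from these same linkage values, and their levels are a description. Within the lower block, which holds Hoxa2 to Hoxa11, D′ was on average 1.11 SD above the chromosome mean and 91.5% of pairs lay above it. Within the upper block, from Hoxa13 to Jazf1, the mean was 0.745 SD and the share 82.5%. Pairs that join both blocks were also above the mean, by 0.582 SD, with a share of 72.9%. Pairs that cross the outer edges were not. The lower block and the 27 windows below it averaged -0.184 SD, and the upper block and the 19 windows above it -0.2 SD.

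Each cluster window was linked to both blocks above the chromosome mean. The Hoxa5 window and the window of Hoxa7 to Hoxa11 both averaged 1.28 SD to the lower block outside the cluster and 0.56 and 0.421 SD to the upper block. The Hoxa2 window, which lies in the lower block, had 0.498 SD to the lower and 1.2 SD to the upper block. No error was computed for these block means, and the order of the blocks was not tested. By distance, lower minus higher for the Hoxa2 window lay within 1 SE of 0 in each range and was of the other sign from 400 kb to 1 Mb (0.0388 ± 0.0558). The Hoxa13 window, on the upper side of the dip, had 0.9 SD to the lower and 0.811 SD to the upper block.

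**Figure D5:**
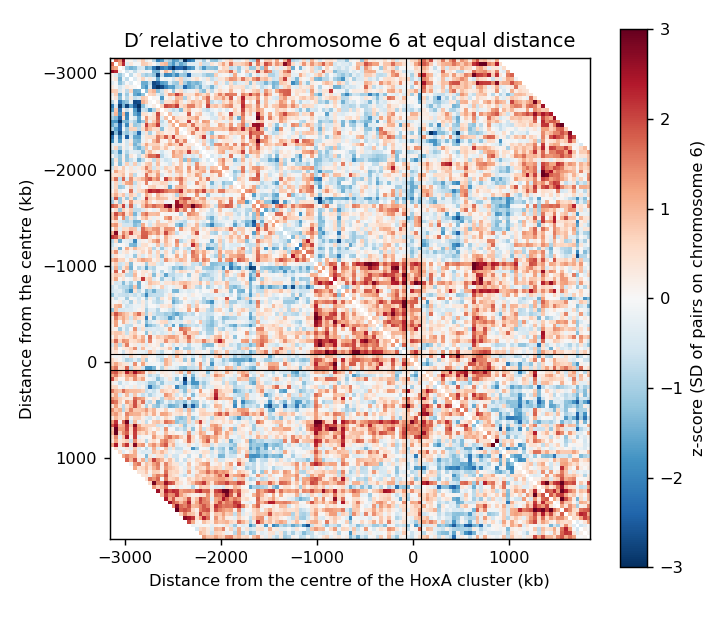
Linkage of every pair of windows up to 4 Mb apart, as a z-score against chromosome 6 pairs at the same distance (red above, blue below the mean), with both axes as distance from the cluster centre in kb; black lines bound the cluster. A red block runs from -1040 kb to the cluster (mean 1.11 SD within it), and pairs that join it to the block above average 0.582 SD.

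Among single flank windows at least 200 kb from the cluster, those that stood highest for their distance were taken by a rule based on their z-score, so their values are a description. On the lower side they were chr6:51320001-51360000 (D′ = 0.524 ± 0.0687 jackknife SE, z = 2.07), which overlaps the predicted gene Gm17725, chr6:51120001-51160000 (0.467 ± 0.0628, z = 1.76) and chr6:51760001-51800000 (0.566 ± 0.0565, z = 1.62), the latter pair without an annotated gene. On the higher side all 3 lay in Jazf1, at chr6:52760001-52800000 (0.529 ± 0.0624, z = 1.76), chr6:52840001-52880000 (0.498 ± 0.0686, z = 1.58) and chr6:52800001-52840000 (0.494 ± 0.064, z = 1.45). The Jazf1 window at chr6:52760001-52800000 was positive in 40 libraries, and in 35 of these the cluster was too. The 9 windows that Jazf1 overlaps had z-scores from 0.385 to 1.76, and the last 2, beyond the edge at 52960000, were the lowest at 0.467 and 0.385.

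The lowest flank windows for their distance lay outside the blocks. On the lower side these were chr6:50440001-50480000 (D′ = 0.148 ± 0.0642, z = -1.17), chr6:50040001-50080000 at Mpp6, a scaffold protein of the membrane (0.144 ± 0.0602, z = -1.0), and chr6:50280001-50320000 in Osbpl3, which encodes an oxysterol-binding protein relative (0.155 ± 0.0622, z = -1.0). On the higher side they were chr6:53240001-53280000 (0.208 ± 0.0643, z = -1.04), chr6:53840001-53880000 in Cpvl, a carboxypeptidase gene (0.166 ± 0.0642, z = -0.97), and chr6:53440001-53480000 (0.214 ± 0.071, z = -0.75).

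Of 12 listed genes of the lower flank, the 5 within 1 Mb of the cluster all lay above the chromosome mean. Skap2, an adaptor protein gene and the nearest, was at a D′ of 0.52 ± 0.045 (z = 0.74), Snx10, a sorting nexin, at 0.443 ± 0.051 (z = 0.91), and Nfe2l3, a transcription factor of the NF-E2 family, at 0.405 ± 0.0544 (z = 0.68). Hnrnpa2b1, an RNA-binding protein, and Cbx3, a heterochromatin protein, share a promoter region and a window and so share the value 0.466 ± 0.0712 (z = 1.30). The 7 listed genes farther away lay below the mean, but the list does not hold every gene there, and 14 of the 33 flank windows at 1.8 Mb and more lay above it, with windows of Igf2bp3 at up to z = 0.73. The listed genes ran from z = -0.78 for Cycs, which encodes cytochrome c, and -0.71 for Osbpl3 and Npy, which encodes neuropeptide Y, to -0.05 for Npvf. Of the pairs of these genes with the cluster, 2 of 4 were called for Npy and 2 of 4 for Cycs, against 77.2% and 88.0% of chromosome 6 pairs at the same separations. For Osbpl3 12 of 20 were called (85.7% on chromosome 6), for Dfna5 11 of 12 (84.2%) and for Npvf 4 of 4 (89.3%). For Stk31 8 of 12 were called (70.8%) and for Mpp6 9 of 12 (83.0%). Pairs of a gene share windows and libraries, and differences from the background were not tested. Every pair of the nearer genes was called, where the share on chromosome 6 was 98.1% to 99.8%.

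Of 8 listed genes of the higher flank, Evx1, a homeobox gene next to the cluster, was at 0.531 ± 0.0579, close to the chromosome mean for its short distance (z = -0.13). Hibadh, an enzyme of valine breakdown, was at 0.488 ± 0.0509 (z = 0.78), Tax1bp1, an autophagy receptor, at 0.437 ± 0.0574 (z = 0.57) and Jazf1 at 0.457 ± 0.0434 (z = 1.12), highest of the list for its distance. Beyond the edge in Jazf1, Creb5, a transcription factor, was at 0.299 ± 0.0532 (z = 0.36) and Tril at 0.283 ± 0.066 (z = 0.34). Cpvl and Chn2 were at 0.226 ± 0.0526 (z = -0.26) and 0.233 ± 0.0621 (z = -0.12). All pairs of the cluster with the 5 genes Evx1, Hibadh, Tax1bp1, Jazf1 and Tril were called, as were 15 of 16 with Creb5, 14 of 16 with Cpvl and 4 of 4 with Chn2. On chromosome 6, 98.5% to 99.9% of pairs at the separations of Evx1, Hibadh, Tax1bp1 and Jazf1 were called, and 85.6% to 90.9% at those of the other genes, so these counts are near the background.

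To ask whether the cluster was linked to loci farther away, its detection (at least 1 of 4 windows positive) was tested against 61285 windows over 4 Mb away or on other chromosomes. None passed Fisher's exact test after Benjamini-Hochberg adjustment (0 windows, 0%), while 2351 windows had an unadjusted p under 0.05 with positive and 845 with negative linkage. Of these, chromosome 6 held 989 positive and 0 negative among 3437 windows, and the other chromosomes 1362 positive and 845 negative among 57848. With the stratified test 1 window passed. The lowest p-values belonged to windows of chromosome 6 itself, where the mean D′ was 0.133 ± 0.101 (SD over 3437 windows) compared with -0.0229 ± 0.134 on other chromosomes. The first held Zfp777 (chr6:47960001-48000000, 30 joint detections, D′ = 0.488, adjusted p = 0.0792), the next Smarcad1, a chromatin remodeller (chr6:64960001-65000000, 40 joint detections, D′ = 0.367, adjusted p = 0.0792; 0.0458 with the stratified test), and the third Sh2d6 (chr6:72440001-72480000, 39 joint detections, adjusted p = 0.208). On other chromosomes the lowest p-values were at Actn2 on chromosome 13 (7 joint detections, D′ = -0.615), Fam110b on chromosome 4 (31, D′ = 0.345) and Atp6v1h on chromosome 1 (26, D′ = 0.392), each with an adjusted p of 0.316.

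The other Hox clusters were found together with HoxA about as often as independent detection would give. HoxB was found with HoxA in 37 libraries, where independence would give 36.7. HoxC was found with HoxA in 38 libraries against 34.2, and HoxD in 30 against 29.7 (Fisher's exact test, adjusted p = 1 for each).

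No contrast in the handling of sections or DNA passed the test for detection of the region. The percent of region windows positive minus that of the rest of chromosome 6 was compared in 11 contrasts within experiments, and all had an adjusted p of 0.977 or more (permutation test, exact for arms under 10 libraries). The widest contrast was between 20 and 25 PCR cycles, at -1.0 (n = 4) against 15.0 percentage points (n = 3), a difference of -16.0 (exact permutation p = 0.371). The libraries ran from -14.0 to 27.8 with 20 cycles and from -14.0 to 41.2 with 25 cycles, so the size of this difference depends on single libraries. With arms of this size the smallest p is 0.0286, or 0.314 when multiplied by the 11 contrasts. The 3 contrasts between PCR cycle numbers could therefore not pass on their own. Across the 11 experiments the same measure gave F = 1.08 (permutation p = 0.377), and the experiment accounted for 4.36% of its variance. The percent of libraries with at least 1 cluster window positive ran from 20.0% in the SYBR Gold test (2 of 10) to 52.2% in the kit size experiment (12 of 23).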

How the data were processed

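The authors aligned reads to mm9 with Bowtie2 (2.1 in the submitters' processing notes) and called 40 kb windows positive with GAMtools at a threshold of 4 reads, per the paper's methods. The deposited table holds, per library and window, a 0 or 1 call, a score without counts, so the depth is unknown and a 0 may be absence or too few reads. Libraries had passed the authors' quality control. All 249 columns matched sample labels by library name.

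The windows, gene lists and tests were chosen with earlier results of these data known. D′ and z-scores used windows of chromosome 6 positive in at least 25 libraries. Pairs up to 4 Mb apart on the autosomes and X (5863935) were tested with Fisher's exact test, and Benjamini-Hochberg adjustment was made over all of them, at a threshold of 0.05. Errors of D′ are jackknife standard errors, leaving out 1 library at a time, and cover the sampling of libraries only. Flanks were compared over 44 windows on each side with 100000 permutations. Cluster windows and Hoxa genes, the 3 highest and 3 lowest windows of each flank by z-score, the minimum nearest the cluster and the lowest minima, the 3 windows of lowest p elsewhere and listed flank genes were named by rule. The minimum at 51120000 and the blocks were named after their values were seen. Gene positions came from GENCODE vM1 and sequence from the NCBIM37 assembly, the same build as mm9. Python 3.11.15, numpy 2.4.6, scipy 1.17.1 and pandas 2.3.3 were used, and the tests were tried on simulated data. Alternatives covered measure, filter, square size, strata, reference and libraries.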

Additional observations from a re-analysis of the deposited data

Results flagged for a closer look

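In groups of 4 to 10 libraries, 18 checks asked whether a single library stood apart from the rest of its group, by Dixon's 95% critical value. For normally distributed values chance gives such a result in about 1 of 20 groups, a rate not tested here for percents that move in steps. The check picked out 5 values, all the highest of their group. In the 20-cycle libraries of the PCR experiment, 1 of 4 libraries had a region detection 27.8 percentage points above the rest of chromosome 6, where the others were at -14.0 to -7.25 points. The highest value for the cluster in that group was 25% of windows positive, with the others at 0. Among the unstained libraries of the SYBR Gold test, 1 of 10 had 75% of cluster windows positive, compared with 0 to 25% in the others. With reagent protocol A, 1 of 10 libraries had 50%, with the others at 0 to 25%, and with protocol C, 1 of 10 had 100%, with the others at 0 to 50%. As the cluster has only 4 windows and most libraries hold none of it, these values move in steps of 25%.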

How the results depend on the processing

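Of 183 alternative values for 12 results, 170 stayed on the same side of the threshold, within 1 standard error or within 1.5 times a count, although 6 of these, all in untested values near 0 or with phi, took the other sign. Detection of the cluster relative to chromosome 6, near 0 throughout, was 0.300 points with all autosomes as the reference, and -0.996 to 1.09 with each experiment left out. The flank difference over all distances was -0.0229 with D′ averaged within coverage tertiles (adjusted p = 0.797), and -0.0186 to 0.0271 with each experiment left out. The number of windows elsewhere called linked was 1 with the stratified test, 4 when at least 2 of 4 cluster windows had to be positive (56 libraries), and 0 to 3 with each experiment left out. Those 4 lay on chromosome 6, at Zfp777, Vmn1r28, Smarcad1 and a window without a gene, the 3 seen without the propidium iodide experiment at Zfp777, Vmn1r36 and Sh2d6, and the single windows seen without the early-freezing and the freezing-after-incubation experiments at Vmn1r36 and Zfp777. In these cases the cause was not tested. Pairs called with the flanks were 326 to 341 of 352 with each experiment left out. With each experiment left out, the mean insulation z-score of the 5 cluster edges was 0.211 to 1.24, lowest without the full collection, and the mean z-score inside the cluster 0.134 to 0.740, lowest without the eosin test, and -0.119 with phi. The unequal detection of windows 1 and 4 had an exact unadjusted p of 0.000346 to 0.0166 with each experiment left out, the highest without the kit size experiment. No paired analysis was possible because the replicate numbers only name libraries in order of accession.

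With 37 to 61 positive libraries per cluster window, jackknife errors of a single pair were 0.075 to 0.101 in D′. Errors of a difference between pairs were not computed, so the smallest detectable difference is not known. The calls carry no read depth, and neighbouring windows share the same slices, so pairs are not independent. Arms of 3 to 6 libraries give wide errors.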

Other observations

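The level of linkage between the cluster and the distant parts of chromosome 6 varied along the chromosome. In stretches of 10 Mb, leaving out windows within 4 Mb of the cluster, the mean D′ with the cluster was highest from 60 to 70 Mb (0.188, 250 windows) and lowest from 110 to 120 Mb (0.0628, 248 windows). No error was computed for these means, and no window in any stretch passed the adjusted test.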
